A study of Mus musculus with 12 samples.

Results

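The genes described here are 10 genes that mark dendritic cells: Siglech, Ccr9, Tcf4, Spib, Flt3, Zbtb46, Itgax, Xcr1, Batf3 and Cd209a. They were found by gene symbol in a table of read counts from mouse bone marrow, in which each symbol matched exactly 1 of 56350 genes. The rule uses the symbol alone, but the list was drawn up with earlier results of these data known. All 10 passed the filter on low counts, which 17475 genes passed. The marrow came from 12 mice with an activating allele of Shp2, in 4 groups of 3 that received vehicle, the MEK inhibitor PD-901, the DNA-demethylating drug 5-azacitidine, or both drugs. After the combination 8 of the 10 genes were lower than after vehicle, among them Siglech, Spib, Itgax and Cd209a, while Zbtb46 and Xcr1 did not pass the test (7.97% of all tested genes were lower). Xist was high in every vehicle and low in every combination library. With a term for Xist in the model the count was 0 of 10, and it was also 0 over all tested genes. Only the PD-901 and 5-azacitidine groups held both Xist-high and Xist-low libraries, so that term was estimated from them. After 5-azacitidine alone none passed, although Siglech, Ccr9, Tcf4, Spib and Flt3 lay below vehicle in every library (as did 9.77% of all genes). After PD-901 alone none passed, and for all 10 members the libraries overlapped those of vehicle. Of all tested genes 5.93% lay below vehicle in every PD-901 library.

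Dendritic cells capture antigen, present it to T cells and release cytokines, and in mice they arise in the marrow from progenitors that carry the receptor tyrosine kinase Flt3. Plasmacytoid dendritic cells, which are made in the marrow and produce type I interferon, depend on the transcription factor encoded by Tcf4 and carry the receptors Siglech and Ccr9. Conventional dendritic cells express the transcription factor Zbtb46 and divide into cDC1, which require Batf3 and carry the chemokine receptor Xcr1, and cDC2, of which some express the lectin Cd209a. Several of the genes are also active in other marrow cells: Spib and Tcf4 in the B lineage, Flt3 in multipotent and lymphoid progenitors, Ccr9 in lymphoid progenitors, Itgax in monocytes, macrophages and NK cells, and Cd209a in monocytes. In bulk marrow, fewer cells of a type and less RNA per cell cannot be told apart.

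All mice were Shp2E76K/+;LysM-Cre+ of strain C57Bl/6J, about 12 to 14 weeks old, with both sexes used and the sex of the single mouse not given. Shp2, encoded by Ptpn11, is a phosphatase that activates Ras and ERK signalling, and the LysM-Cre driver uses the Lyz2 locus, so recombination is aimed at myeloid cells rather than at dendritic cells as such. PD-901 was given at 5 mg/kg by mouth in 20 doses over 4 weeks, and 5-azacitidine at 5 mg/kg into the peritoneum in 5 doses over the same 4 weeks. The combination group received both courses. Every group carries the mutant allele, so no comparison here is with wild-type marrow.

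Total counts ran from 15356919 to 27148190 per library, with a median of 19657932.5. The marker lists of blood cell types were expressed in every library, with the summed level of 8 neutrophil genes between 16011 and 44568 CPM (read counts scaled to library size with TMM factors), and every member had at least 12 counts in every library. The libraries within a group were not alike in 2 respects. The transcript of Lyz2 stood at 44.9 to 172 CPM in vehicle 1, vehicle 2, combination 1 and combination 2, and at 699.6 to 4182 CPM in the other 8. Xist, which is transcribed from the inactive X chromosome of females, was above 100 CPM in all 3 mice given vehicle, in 2 given PD-901, in 1 given 5-azacitidine and in none of those given both (138 to 725 CPM where above, 0.556 to 7.14 CPM where below). Vehicle against combination is therefore also a comparison of Xist-high with Xist-low libraries, and in these 2 groups alone treatment and Xist cannot be told apart.

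The promoters of the 3 plasmacytoid genes whose libraries with 5-azacitidine all lay below those without it are shown, a choice made after their values were seen. The share of all genes with such a separation was not counted. The windows run from 250 bases before to 50 bases after the RefSeq start (build GRCm38.p6), 5′ to 3′ on the gene's strand, at chr7:55767934-55768233 (Siglech, plus strand), chr7:44532022-44532321 (Spib, minus strand) and chr9:123766961-123767260 (Ccr9, plus strand). Capitals mark matches on either strand to CANNTG, the E box that Tcf4 protein and other E proteins bind, and to GAGGAA, a core that Spi-B and its relative PU.1 bind.
Siglech: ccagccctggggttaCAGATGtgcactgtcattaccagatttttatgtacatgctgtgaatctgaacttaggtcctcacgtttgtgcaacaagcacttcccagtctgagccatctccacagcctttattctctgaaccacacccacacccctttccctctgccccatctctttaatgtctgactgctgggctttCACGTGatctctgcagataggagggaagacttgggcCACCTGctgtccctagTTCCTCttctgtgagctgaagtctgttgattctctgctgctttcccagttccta
Spib: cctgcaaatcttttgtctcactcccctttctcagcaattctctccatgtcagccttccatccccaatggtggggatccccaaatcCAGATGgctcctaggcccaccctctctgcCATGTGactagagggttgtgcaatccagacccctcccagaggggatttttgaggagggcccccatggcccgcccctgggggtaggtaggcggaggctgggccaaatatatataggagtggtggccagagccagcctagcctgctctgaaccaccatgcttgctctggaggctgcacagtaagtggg
Ccr9: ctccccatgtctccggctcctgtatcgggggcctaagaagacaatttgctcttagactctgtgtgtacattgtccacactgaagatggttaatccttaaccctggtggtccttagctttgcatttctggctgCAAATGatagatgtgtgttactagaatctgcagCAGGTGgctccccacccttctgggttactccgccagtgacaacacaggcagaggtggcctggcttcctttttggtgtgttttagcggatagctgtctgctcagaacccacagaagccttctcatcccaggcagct
The Siglech window held 3 matches to CANNTG and 1 to GAGGAA, and the windows of Spib and Ccr9 held 2 matches each to CANNTG and none to GAGGAA. Over 9 members searched (all but Tcf4) every window held CANNTG, from 1 match in Xcr1 to 6 in Zbtb46, and 2 held GAGGAA, Siglech and Batf3, with no overlap between motifs. Of 32851 RefSeq promoter windows of the same length, 72.3% held CANNTG, 17.6% held it at least 3 times, and 28.3% held GAGGAA. A match describes letters only and shows no binding.

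**Figure D1:**
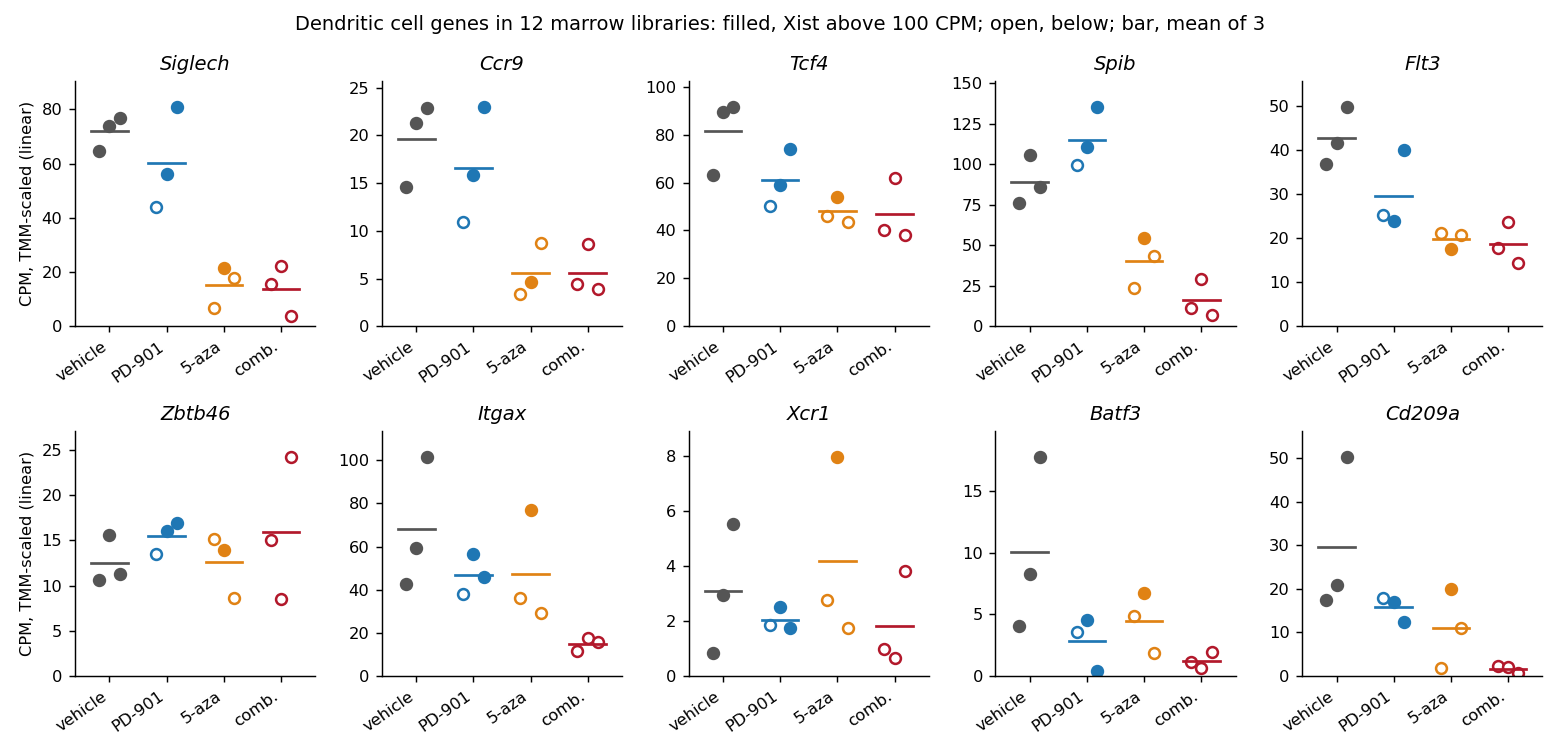
Levels of the 10 dendritic cell genes in TMM-scaled CPM on linear axes from 0, 1 point for each library in 4 groups of 3, with the group mean as a bar; filled points are libraries with Xist above 100 CPM. In Siglech the vehicle and PD-901 libraries sit between 44.0 and 80.8 CPM and all libraries that received 5-azacitidine between 3.75 and 22.4 CPM.

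Among the plasmacytoid genes Siglech, a sialic acid-binding receptor that signals through the adaptor Tyrobp, fell in the combination group. Its vehicle and PD-901 libraries stood apart from all 6 libraries that received 5-azacitidine, and how many of all genes do so was not counted. Siglech lies at chr7:55768178-55778925 on the plus strand (mm10). Its level was 64.8, 73.9 and 76.9 CPM in the vehicle libraries and 44.0, 56.1 and 80.8 CPM in the PD-901 libraries. It was 6.79, 21.5 and 17.7 CPM after 5-azacitidine and 15.6, 22.4 and 3.75 CPM after the combination. The order of group means was vehicle, PD-901, 5-azacitidine, combination, and only the step from PD-901 to 5-azacitidine separated the libraries of neighbouring groups. Against vehicle the log2 change was -2.38 ± 0.53 (SE) after the combination (edgeR, adjusted p = 0.0132), -2.23 ± 0.53 after 5-azacitidine (adjusted p = 0.130) and -0.25 ± 0.50 after PD-901 (adjusted p = 0.990). Without combination 1 the call against vehicle was lost (adjusted p = 0.0625).

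Ccr9, the receptor for the chemokine Ccl25 that guides plasmacytoid and lymphoid cells to gut and thymus, had the same order except for its lowest groups. Ccr9 lies at chr9:123678439-123784330 on the plus strand. It stood at 14.6, 21.3 and 22.9 CPM with vehicle and at 10.9, 15.9 and 22.9 CPM with PD-901. It stood at 3.43, 4.64 and 8.71 CPM with 5-azacitidine and at 4.43, 8.57 and 3.87 CPM with the combination. All 6 libraries with 5-azacitidine were thus below the other 6, a separation whose share over all genes was not counted. The 5-azacitidine and combination means (5.59 and 5.62 CPM) differed by less than the spread of either group. The log2 change against vehicle was -1.81 ± 0.39 (SE) after the combination (adjusted p = 0.00855), -1.80 ± 0.39 after 5-azacitidine (adjusted p = 0.0967) and -0.24 ± 0.37 after PD-901 (adjusted p = 0.987). The exons of Ccr9 share 1932 of 10260 bases with Gm17021 and 22 with Slc6a20a, both on the opposite strand. They share 269 bases with Gm17200 on the same strand. The strand setting of the counting is not given, and how reads in these shared bases were counted is not known here. No other member shares exon bases with another gene.

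Tcf4 encodes the E protein (E2-2) on which the plasmacytoid lineage depends, and it showed the smallest change of the 8 that fell. The gene had 63.2, 89.6 and 91.4 CPM with vehicle and 50.3, 59.2 and 73.9 CPM with PD-901. It had 46.2, 54.0 and 43.7 CPM with 5-azacitidine and 40.0, 62.1 and 38.3 CPM with the combination. The lowest vehicle library (63.2 CPM) lay just above the highest combination library (62.1 CPM), so the groups did not overlap but nearly met. The log2 change against vehicle was -0.80 ± 0.20 (SE) after the combination (adjusted p = 0.0190) and -0.76 ± 0.20 after 5-azacitidine (adjusted p = 0.134). The combination call was lost without vehicle 2, vehicle 3, combination 1 or combination 3, with an adjusted p of at most 0.0904.

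Spib encodes the Ets factor Spi-B, which acts in plasmacytoid cells and in B cells. Its mean level per length was the highest of the 10 genes in all 4 groups, though not in every vehicle or combination library. Spib lies at chr7:44525993-44532071 on the minus strand. It stood at 75.9, 105.5 and 85.9 CPM with vehicle and at 99.7, 110.5 and 135 CPM with PD-901. It stood at 23.3, 54.6 and 43.6 CPM with 5-azacitidine and at 11.4, 29.1 and 7.18 CPM with the combination. Spib was therefore higher on average with PD-901 than with vehicle (115 against 89.1 CPM, libraries overlapping), lower with 5-azacitidine in every library, and lowest with the combination, where only combination 2 reached into the 5-azacitidine range. The log2 change against vehicle was -2.49 ± 0.44 (SE) after the combination (adjusted p = 0.00479), -1.14 ± 0.41 after 5-azacitidine (adjusted p = 0.231) and 0.37 ± 0.41 after PD-901 (adjusted p = 0.974). Against PD-901 the combination was lower by a log2 change of -2.86 ± 0.44 (adjusted p = 0.00399), a call kept in 12 of 12 fits that each left out 1 library.

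Of the receptor and lineage genes shared by several types, Flt3 and Itgax fell after the combination and Zbtb46 did not pass. Flt3, the receptor for the growth factor Flt3l that drives dendritic cell development, lies at chr5:147330741-147400489 on the minus strand. It had 36.7, 41.7 and 49.7 CPM with vehicle and 25.2, 23.9 and 39.9 CPM with PD-901. It had 21.2, 17.4 and 20.7 CPM with 5-azacitidine and 17.8, 23.6 and 14.4 CPM with the combination. All libraries with 5-azacitidine, alone or combined, were below all libraries without it, but the 2 sets nearly met. Combination 2 had 23.56 CPM and PD-901 2 had 23.91 CPM. The share of all genes that separate in this way was not counted. The log2 change of Flt3 against vehicle was -1.20 ± 0.22 (SE) after the combination (adjusted p = 0.00459), -1.11 ± 0.22 after 5-azacitidine (adjusted p = 0.0933) and -0.52 ± 0.22 after PD-901 (adjusted p = 0.960).

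Itgax encodes CD11c, an integrin chain that pairs with Itgb2, and lies at chr7:128129547-128150657 on the plus strand. Its level was 42.8, 59.6 and 101.5 CPM with vehicle and 38.1, 56.4 and 45.8 CPM with PD-901. With 5-azacitidine it was 36.2, 76.8 and 29.1 CPM, and with the combination 11.7, 17.5 and 15.7 CPM. The 3 combination libraries were below all 9 others, which overlapped among themselves. Itgax was the only member for which the combination was lower than each of the other 3 groups by the test: the log2 change was -2.18 ± 0.37 (SE) against vehicle (adjusted p = 0.00378), -1.64 ± 0.36 against PD-901 (adjusted p = 0.0171) and -1.66 ± 0.36 against 5-azacitidine (adjusted p = 0.0437). The call against 5-azacitidine held in 5 of 12 fits that left out 1 library (adjusted p up to 0.187) and not without the 4 libraries low in Lyz2 (adjusted p = 0.191).

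Zbtb46, the transcription factor of conventional dendritic cells that some erythroid progenitors and endothelial cells also express, had a positive estimate after the combination. Zbtb46 lies at chr2:181387762-181459426 on the minus strand. It stood at 10.6, 15.6 and 11.3 CPM with vehicle and at 13.5, 16.0 and 16.9 CPM with PD-901. It stood at 15.2, 14.0 and 8.61 CPM with 5-azacitidine and at 15.0, 8.46 and 24.2 CPM with the combination. The groups overlapped throughout, and the lowest and highest of the 12 libraries were both combination libraries. The log2 change after the combination was 0.35 ± 0.32 (SE), with a 95% interval from -0.33 to 1.03 (adjusted p = 0.543). Without combination 3 the estimate turned to -0.09.

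The cDC1 genes had few reads, with 13 to 131 counts per library for Xcr1 and 12 to 422 for Batf3. Xcr1, the receptor for the chemokine Xcl1 (chr9:123852315-123862029, minus strand), had 0.825, 2.96 and 5.52 CPM with vehicle and 1.86, 2.50 and 1.75 CPM with PD-901. It had 2.77, 7.96 and 1.76 CPM with 5-azacitidine and 0.967, 0.663 and 3.83 CPM with the combination. No group of Xcr1 stood apart, and the 95% interval of the log2 change after the combination ran from -2.32 to 0.80 around -0.76 (adjusted p = 0.570). A change of Xcr1 of up to -2.32 is within that interval.

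Batf3, the AP-1 family factor that cDC1 require, spread widely among vehicle mice. It lies at chr1:191097847-191108945 on the plus strand. It had 4.07, 8.28 and 17.8 CPM with vehicle and 3.57, 4.51 and 0.437 CPM with PD-901. It had 4.88, 6.77 and 1.85 CPM with 5-azacitidine and 1.17, 0.612 and 1.97 CPM with the combination. All 3 combination libraries were below all vehicle libraries, but PD-901 3 was lower than any of them. The log2 change against vehicle was -2.99 ± 0.78 (SE) after the combination (adjusted p = 0.0225), -1.17 ± 0.72 after 5-azacitidine (adjusted p = 0.460) and -1.84 ± 0.73 after PD-901 (adjusted p = 0.960). The combination call was lost without vehicle 3, combination 1 or combination 2, with an adjusted p of at most 0.0943.

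Cd209a, a C-type lectin related to human DC-SIGN and found on cDC2 and monocyte-derived cells, had the largest change of the 10. It lies at chr8:3743397-3748984 on the minus strand. It had 17.5, 20.9 and 50.2 CPM with vehicle and 17.8, 16.9 and 12.4 CPM with PD-901. It had 1.85, 19.9 and 10.9 CPM with 5-azacitidine and 2.19, 2.09 and 0.592 CPM with the combination. The 3 combination libraries were below all vehicle and PD-901 libraries, and 5-azacitidine 1 was at their level. The log2 change was -4.21 ± 0.75 (SE) after the combination (adjusted p = 0.00515), -1.44 ± 0.65 after 5-azacitidine (adjusted p = 0.317) and -0.91 ± 0.64 after PD-901 (adjusted p = 0.960).

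**Figure D2:**
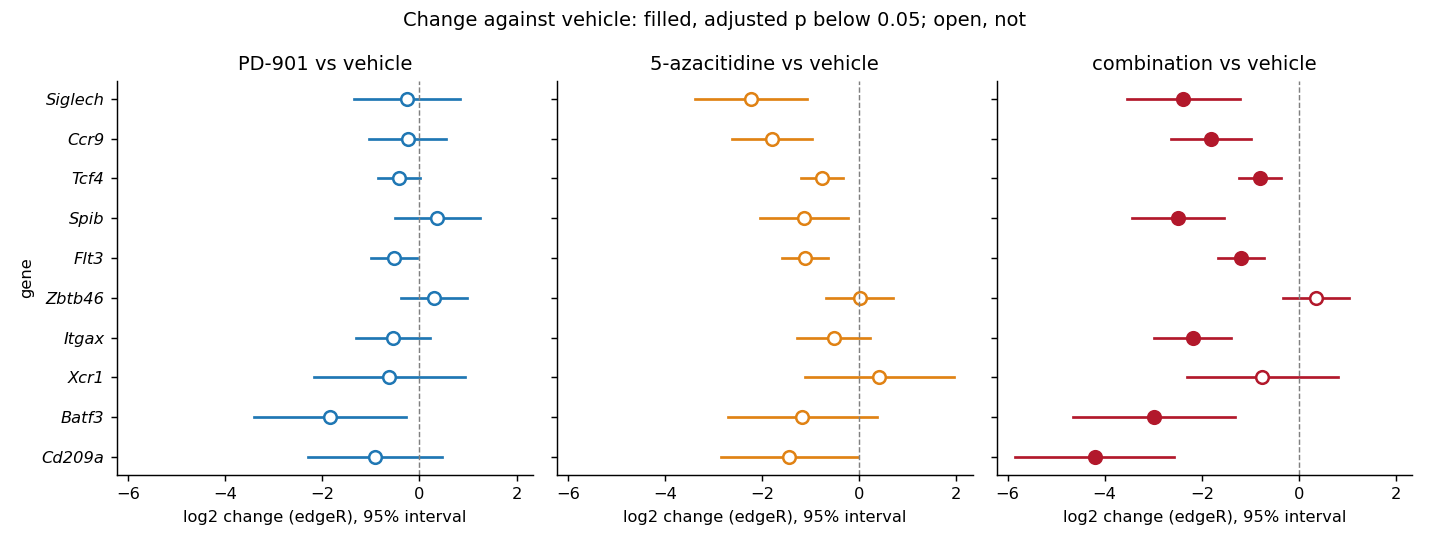
Log2 change of each gene against vehicle from edgeR with its 95% interval, for PD-901, 5-azacitidine and the combination; filled points have an adjusted p below 0.05. In the combination panel 8 of 10 points are filled, from -4.21 (Cd209a) to -0.80 (Tcf4), and none is filled in the other panels.

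Compared per length, the order of the members' group means differed between vehicle and the combination. In vehicle marrow the mean level in RPKM (CPM divided by the exon length in kilobases) was 31.1 for Spib, 21.2 for Siglech, 18.7 for Cd209a, 14.1 for Itgax, 6.91 for Flt3, 6.29 for Batf3, 2.97 for Tcf4, 1.91 for Ccr9, 1.47 for Zbtb46 and 0.697 for Xcr1. Among neighbours in that order, the vehicle libraries of Siglech and Cd209a, of Cd209a and Itgax, of Flt3 and Batf3, of Batf3 and Tcf4 and of Ccr9 and Zbtb46 overlapped. After the combination the mean of Spib remained first with 5.55 RPKM. Cd209a went from the third place to the seventh with 1.03 RPKM, and Zbtb46 moved in rank from the ninth to the fifth with 1.87 RPKM. These ranks are of means, and libraries of the same group differed in order. Vehicle 3 had 31.7 RPKM of Cd209a and 30.0 of Spib. Combination 1 had 4.60 RPKM of Siglech and 3.99 of Spib. Combination 3 had 3.27 of Itgax, 2.85 of Zbtb46 and 2.50 of Spib, while combination 2 had 0.995 of Zbtb46. The summed level of the 10 genes was 331 to 513 CPM with vehicle, 305 to 430 with PD-901, 162 to 278 with 5-azacitidine and 114 to 175 with the combination.

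Set against all genes, the share of members called after the combination was above that of the whole table. Of the 17475 tested genes 7.97% were lower and 5.78% higher than with vehicle (edgeR, adjusted p below 0.05), against 8 lower and 0 higher of the 10 members. Every combination library was below every vehicle library for 15.9% of all genes and for 8 of the 10 members, the same 8 that passed the test. The members' median log2 change was -1.99 and that of all tested genes 0.01. Ccr9, Cd209a, Flt3, Itgax and Spib kept their call in 12 of 12 fits that left out 1 library, and the count was 5 without combination 1. It was 8 in DESeq2, 7 in edgeR with no low-count filter, where Siglech was lost, and 7 in limma-voom, where Batf3 was lost.

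With a term for Xist above 100 CPM in the model, 0 of the 10 members and 0 of all genes were lower after the combination in edgeR, while 9 members with that term had the sign of the fit without it. In the fit with the Xist term the changes were -3.56 for Cd209a (adjusted p = 0.0990), -1.99 for Spib (adjusted p = 0.122) and -1.36 for Itgax (adjusted p = 0.116). Flt3 had -1.15 (adjusted p = 0.114), Siglech -1.66 (adjusted p = 0.269) and Batf3 -2.75 (adjusted p = 0.219). Ccr9 had -1.55 (adjusted p = 0.204) and Tcf4 -0.46 (adjusted p = 0.474). The SE of every member was larger with the term, for Flt3 0.34 against 0.22 without it and for Itgax 0.40 against 0.37. Within Xist-low libraries, the 3 combination libraries had 3.75 to 22.4 CPM of Siglech against 44.0 CPM in PD-901 1, 7.18 to 29.1 CPM of Spib against 99.7, 0.592 to 2.19 CPM of Cd209a against 17.8, and 11.7 to 17.5 CPM of Itgax against 38.1. Also below PD-901 1 were Ccr9 (3.87 to 8.57 CPM against 10.9), Flt3 (14.4 to 23.6 against 25.2) and Batf3 (0.612 to 1.97 against 3.57). Tcf4 did not separate there, with 38.3 to 62.1 CPM against 50.3, and neither did Xcr1 or Zbtb46. The 2 Xist-low libraries of 5-azacitidine had 6.79 to 17.7 CPM of Siglech, within the range of the combination, 23.3 to 43.6 of Spib, 1.85 to 10.9 of Cd209a and 29.1 to 36.2 of Itgax. Within Xist-high libraries, 5-azacitidine 2 had 21.5 CPM of Siglech, 4.64 of Ccr9, 17.4 of Flt3, 54.6 of Spib and 54.0 of Tcf4. Each was below the lowest vehicle library. Inside the vehicle range were its 19.9 CPM of Cd209a, 76.8 of Itgax, 6.77 of Batf3 and 14.0 of Zbtb46. Its 7.96 CPM of Xcr1 lay above that range. The comparisons with PD-901 1 and of 5-azacitidine 2 with vehicle each set 1 library against 3. No test was made within these strata, and the share of all genes that separate likewise was not counted. Leaving out the 4 libraries low in Lyz2 leaves 1 vehicle and 1 combination library, with the lone library of a group assumed to vary like the other groups. The changes were then -3.58 for Spib, -4.36 for Siglech, -1.78 for Flt3, -2.69 for Itgax and -1.26 for Tcf4. They were -6.39 for Cd209a, -3.17 for Batf3, -2.56 for Ccr9, -0.53 for Xcr1 and 1.10 for Zbtb46.

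**Figure D3:**
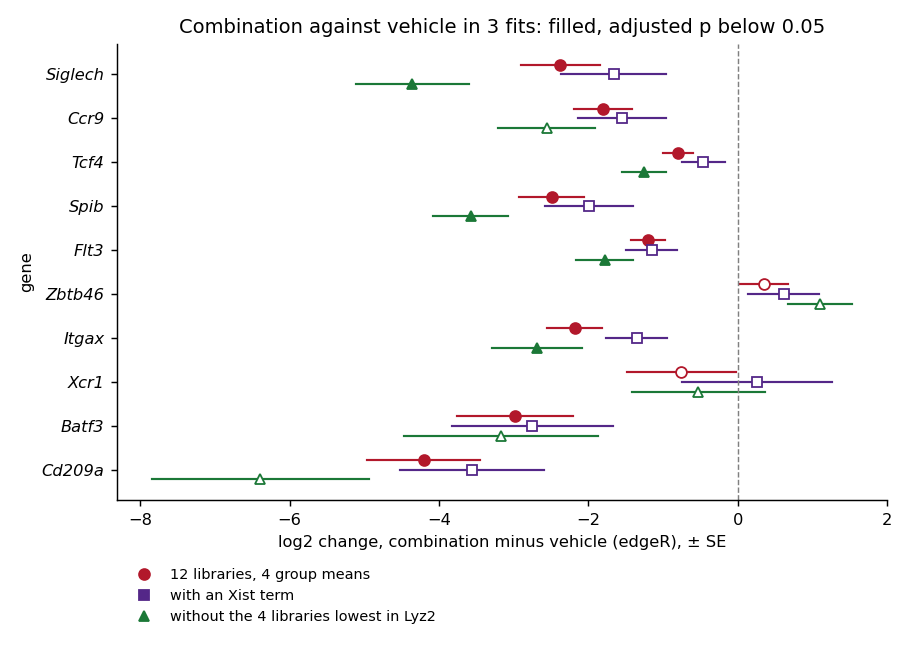
Log2 change of each gene, combination minus vehicle, with its SE, in the fit of 12 libraries, with a term for Xist above 100 CPM, and without the 4 libraries lowest in Lyz2; filled symbols have an adjusted p below 0.05. The number of filled symbols is 8 in the fit of 12 libraries and 0 with the Xist term. Spib lies at -2.49, -1.99 and -3.58 in the order of the fits named.

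For 5-azacitidine alone against vehicle, edgeR called 0 of the 10 members in either direction. The background was 0% of all genes lower and 0.00572% higher. Of the members 6 had a raw p below 0.05, as did 15.3% of all genes. DESeq2, which called 322 genes lower in all, called 4 members (Ccr9, Flt3, Siglech and Tcf4), edgeR without the low-count filter 3 and limma-voom 0. In 5 members every 5-azacitidine library was below every vehicle library, against 9.77% of all genes, and the 5 were Siglech, Ccr9, Tcf4, Spib and Flt3. The members' median log2 change was -1.12, and that of all genes was -0.01. Without combination 2, whose group is outside the contrast but shares the estimate of spread, 2 members were called (Ccr9 and Flt3), and without combination 3 Siglech was called.

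For PD-901 alone against vehicle, edgeR called 0 of the 10 members, and the background was 0% in either direction. A raw p below 0.05 was found for 2 members, Batf3 and Flt3, and for 4.88% of all genes, and DESeq2 and limma-voom called 0 members. For 5.93% of all genes every PD-901 library was below every vehicle library, and for 0 of the 10 members. The members' median log2 change was -0.47.

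The combination was lower than PD-901 alone for 5 members, against 5.12% of all genes lower and 1.69% higher. These were Spib (-2.86), Cd209a (-3.29), Siglech (-2.12), Itgax (-1.64) and Ccr9 (-1.56), and the libraries did not overlap for these 5 or for Flt3, against 15.0% of all genes. Spib was called in 12 of 12 fits that left out 1 library. Cd209a was lost without PD-901 1, combination 1 or combination 3, Itgax without PD-901 2, combination 1 or combination 3, and Ccr9 without PD-901 2, PD-901 3, combination 1 or combination 3, with adjusted p of at most 0.0903, 0.0901 and 0.108. Siglech was lost without any of the PD-901 libraries, 5-azacitidine 3 or combination 1 (adjusted p of at most 0.114). Cd209a was also lost with no low-count filter and in limma-voom, and Siglech with no filter, while Flt3 passed with no filter and in DESeq2, and the count was 4 with no filter, 4 in limma-voom and 6 in DESeq2. The count was 1 without combination 1, 2 without PD-901 2 or combination 3, and 3 without PD-901 1 or PD-901 3. With the Xist term only Spib remained among the members (-2.52, adjusted p = 0.0189).

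The combination was lower than 5-azacitidine alone for 1 member, Itgax, against 1.07% of all genes lower and 0.252% higher. Itgax was also the only member whose libraries did not overlap in this comparison, against 9.54% of all genes. Cd209a (-2.77 ± 0.73, adjusted p = 0.0817) and Spib (-1.36 ± 0.42, adjusted p = 0.132) did not pass. The 95% intervals of the difference between combination and 5-azacitidine ran from -1.29 to 0.98 for Siglech, -0.83 to 0.81 for Ccr9, -0.57 to 0.39 for Flt3 and -0.47 to 0.40 for Tcf4, which leaves a log2 difference of more than 1 possible for Siglech.

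Between the single agents, 5-azacitidine against PD-901, edgeR called 0 of the 10 members with a background of 0% in each direction. A raw p below 0.05 was found for 4 members and for 7.30% of all genes, and DESeq2 called 1 and limma-voom 0. Every 5-azacitidine library was below every PD-901 library for Ccr9, Flt3, Siglech and Spib, against 7.18% of all genes. The interaction, the departure of the combination from the sum of the single log2 changes, passed for 0 members and for 0% of all genes in edgeR. Its raw p was below 0.05 for 10.7% of all genes and for 2 members, Spib (-1.72 ± 0.59, adjusted p = 0.303) and Itgax (-1.12 ± 0.50, adjusted p = 0.444), and DESeq2 and limma-voom called 0 members. Without combination 2 Spib passed for the interaction (adjusted p = 0.0344).

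Other genes of the plasmacytoid programme were lower after the combination as well. Of 19 tested 11 fell and 0 rose, while 7.97% of all tested genes were lower and 5.78% higher. The list had a median log2 change of -1.22 beside 0.01 for all tested genes. The 4 with the lowest p were Cox6a2, a cytochrome oxidase subunit (-2.19 ± 0.33), Runx2, a transcription factor of plasmacytoid maturation (-1.22 ± 0.20), Irf7, the interferon regulatory factor that is itself induced by interferon in many cells (-1.98 ± 0.35), and Tlr7, the receptor for single-stranded RNA that macrophages and B cells also carry (-1.22 ± 0.24). Adjusted p was 0.00290, 0.00322, 0.00454 and 0.00549. Bcl11a, a factor of plasmacytoid and B cell development picked out after its values were seen, had an estimate in the other direction (0.51 ± 0.16, adjusted p = 0.0505). After 5-azacitidine alone edgeR called 0 of the 19, with 19 of 19 estimates negative (8880 of 17475 over all tested genes) and a median of -0.90. A raw p below 0.05 was found for 14 of them and for 15.3% of all genes. After PD-901 alone 0 were called, the median was -0.27, and 0 had a raw p below 0.05, beside 4.88% of all genes.

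Of the cDC1 list 5 of 14 fell after the combination and 0 rose, while 7.97% of all tested genes were lower and 5.78% higher. The median was -0.67, with 10 of 14 estimates negative, beside 8614 of 17475 over all tested genes. The 4 with the lowest p were Irf8 (-1.14 ± 0.23), Clec9a (-1.07 ± 0.33), Wdfy4 (-0.63 ± 0.19) and Cadm1 (-1.79 ± 0.54). Irf8 is a factor that cDC1, plasmacytoid cells and monocytes all use, Clec9a is a receptor for dead cells, Wdfy4 acts in cross-presentation and Cadm1 is an adhesion molecule. The level of Irf8 was 418 ± 68.7 CPM (SD, n = 3) with vehicle, 321 ± 71.0 with PD-901, 183 ± 21.7 with 5-azacitidine and 190 ± 64.8 with the combination. Of the cDC2 list 7 of 12 fell and 0 rose (median -0.99), led by Irf4, a factor of cDC2 and B cells (-1.83 ± 0.30), Sirpa, an inhibitory receptor common to myeloid cells (-0.93 ± 0.16), the NF-κB subunit Relb (-1.05 ± 0.23) and Cd209d, a relative of Cd209a (-4.30 ± 0.96, on a mean of 3.66 CPM with vehicle and 0.187 with the combination). Of the genes of conventional and mature dendritic cells 3 of 10 fell and 0 rose (median -1.08): Kmo, an enzyme of kynurenine metabolism (-1.72 ± 0.27), Cst3, the protease inhibitor cystatin C (-0.90 ± 0.20), and the peptidase Dpp4 (-1.25 ± 0.35). Ciita, the activator of MHC class II genes, had -1.41 ± 0.50 (adjusted p = 0.0790). In all 3 lists edgeR called 0 genes after either single agent. After 5-azacitidine a raw p below 0.05 was found for 2 of 14, 5 of 12 and 2 of 10 genes by list, beside 15.3% of all genes. After PD-901 it was found for 1 gene, on the cDC1 list, beside 4.88% of all genes.

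Among regulators of dendritic cell development 6 of 16 fell after the combination and 0 rose, while 7.97% of all tested genes were lower and 5.78% higher. The regulators' median was -0.25, with 11 of 16 estimates negative, beside 8614 of 17475 over all tested genes. Bcl6, a repressor (-1.18 ± 0.19), the GM-CSF receptor chain Csf2ra (-0.98 ± 0.18), Spi1, which encodes PU.1 (-0.78 ± 0.16), and the G-CSF receptor Csf3r (-1.41 ± 0.31) had the lowest p, and neutrophils or monocytes express them too. Of the ligands and partners of the members 2 of 6 fell: Tyrobp, the adaptor of Siglech (-0.97 ± 0.17, adjusted p = 0.00364), and Itgb2, the partner chain of Itgax (-0.88 ± 0.16, adjusted p = 0.00440), both of which many myeloid cells express. The ligands did not pass, with -0.42 ± 0.32 for Flt3l, which binds Flt3, -0.80 ± 0.58 for Xcl1, which binds Xcr1, 0.37 ± 0.33 for Ccl25, which binds Ccr9, and -0.27 ± 0.17 for Icam2, which the Cd209 family binds. Adjusted p for these 4 was 0.453, 0.426, 0.543 and 0.335.

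Markers of several other cell types moved in the same comparison. Of the B lineage list 11 of 12 fell after the combination, and its summed level was 467 to 493 CPM with vehicle, 648 to 754 with PD-901, 184 to 570 with 5-azacitidine and 97.8 to 238 with the combination. Spib had the same order of groups as this list, with PD-901 above vehicle and the combination lowest. Of the monocyte list 4 of 9 fell (3503 to 4327 CPM with vehicle, 1681 to 3131 with the combination), of the macrophage list 3 of 9 (399 to 1017 and 219 to 364) and of the neutrophil list 4 of 8 (20800 to 41671 and 16011 to 19721). NK markers fell for 2 of 7 (115 to 151 and 105 to 179 CPM). The lists of T cell markers (85.1 to 98.7 and 57.7 to 86.1 CPM) and of stem and progenitor markers (224 to 322 and 216 to 227 CPM) had 1 of 8 lower each, near the 7.97% of all genes, and their median log2 changes were 0.24 and 0.15. Erythroid markers rose for 6 of 7 (698 to 1266 and 1109 to 3806 CPM). The part of these other cell types in the members' changes was not tested. After 5-azacitidine alone edgeR called 0 markers of any of the 8 lists. A raw p below 0.05 was found for 7 of 9 monocyte, 4 of 7 NK, 4 of 7 erythroid and 0 of 12 B lineage markers. Over all genes the share was 15.3%.

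**Figure D4:**
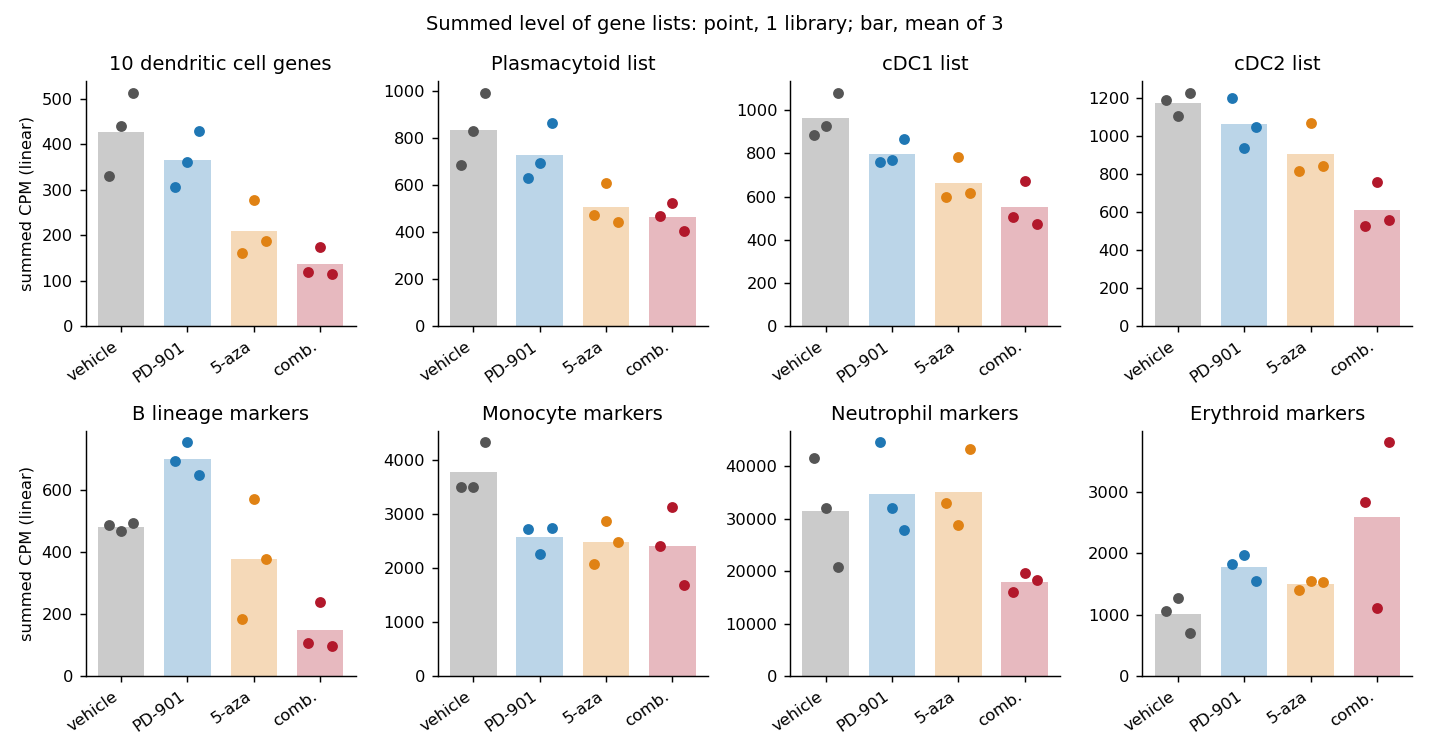
Summed TMM-scaled CPM of the 10 dendritic cell genes, of 3 further dendritic cell lists and of 4 marker lists, on linear axes from 0, with 1 point for each library and the mean of 3 as a bar. The 10 genes sum to 331 to 513 CPM with vehicle and 114 to 175 with the combination, and the B lineage markers to 467 to 493 and 97.8 to 238.

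The genes most like each member over the 12 libraries were ranked by Pearson's r of log2 CPM among 13440 genes with a mean of at least 1 CPM, as a description, since all 12 points share the treatment groups, the libraries and their depth. Nearest to Siglech were Gm13919 (r = 0.97), Cd300c (0.97) and Epha2 (0.97), and nearest to Ccr9 were Xkrx (0.98), Slc41a2 (0.97) and Pacsin1 (0.95). Nearest to Tcf4 were Ptprs (0.96), Tmem229b (0.95) and Tlr9 (0.95). Of these, Cd300c, Pacsin1, Ptprs and Tlr9 are on the plasmacytoid list. Nearest to Flt3 were Runx2 (0.96), Irf8 (0.94) and Ppfia4 (0.94), and nearest to Spib were Atp1b1 (0.98), Gfra1 (0.98) and Cpm (0.98). Itgax was nearest to C3ar1 (0.98), Adgre4 (0.97) and Smpdl3b (0.97), of which C3ar1 and Adgre4 are receptors of monocytes and macrophages, and Cd209a to Unc93b1 (0.97), H2-T23 (0.97) and Apobec1 (0.97). Zbtb46 was nearest to Tnk2 (0.92), Ube2o (0.92) and Zfpm1 (0.90), the last of which encodes the GATA cofactor FOG1 of erythroid and megakaryocytic cells, and its estimate after the combination was positive (0.83 ± 0.27, adjusted p = 0.0578). The lowest best values belonged to Xcr1, with Anpep (0.90), Plekhg5 (0.89) and Gata3 (0.86), and Batf3, with Hpgds (0.86), Asb2 (0.86) and Slc10a3 (0.86).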

How the data were processed

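RNA from marrow cells of 12 mice was sequenced in read pairs, 1 library a mouse; numbers such as vehicle 1 are names only. The deposited file gives the authors' raw counts of reads for each gene, with gene lengths, before any normalization. Per the submitters' processing notes STAR 2.7.2a, featureCounts and Subread 1.6.5 were used with mm10. No strand setting or annotation release is given in the sources used here, and the coordinates of all 10 genes match GENCODE M21.

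The analysis used R 4.3.3 and edgeR 4.0.16. Genes passing filterByExpr (minimum count 10, total 15) were scaled by TMM and fitted by quasi-likelihood with 4 group means over 12 libraries (8 residual degrees of freedom, common biological coefficient of variation 0.328). The 7 contrasts were tested two-sided with Benjamini-Hochberg adjustment over all 17475 tested genes at 0.05. CPM and RPKM were computed from the counts with TMM-scaled library sizes and the table's lengths. Replicate libraries were not copies of each other (chi-square statistic over its degrees of freedom 19.9 to 71.2). Total counts ran from 15356919 to 27148190, which limits precision for genes with few reads.

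The members, gene lists and tests were chosen with earlier results of these data known. The text names the 10 members, at most 4 members of a list with the lowest p in combination against vehicle, every ligand or partner, and 3 genes most like each member. Alternatives were DESeq2 size factors, no low-count filter, DESeq2 1.42.0, limma-voom (limma 3.58.1), only the groups compared, and leaving out each library. A further 2 were chosen after seeing the data, an Xist term and leaving out 4 libraries low in Lyz2. The edgeR script was tested on simulated data.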

Additional observations from a re-analysis of the deposited data

How the results depend on the processing

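No paired analysis was possible because the labels give no replicate numbers that pair mice across groups. DESeq2 size factors in edgeR left every count of members as it was. The cause of the differences below was not tested. Counts from fits with fewer libraries were lower in some cases and higher in others. The lowest libraries of Xcr1, Batf3 and Cd209a had 13, 12 and 15 counts, and the part of depth in their errors was not tested.

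Members lower than vehicle after the combination numbered 8, 7 with no low-count filter (Siglech lost) and in limma-voom (Batf3 lost), 5 to 8 in fits that left out 1 library, 5 without the 4 libraries lowest in Lyz2 and 0 with the Xist term. For 5-azacitidine against vehicle the 0 became 3 with no low-count filter, 4 in DESeq2 and 0 to 2 on leaving out 1 library. For the combination against PD-901 the 5 became 4 with no filter and in limma-voom, 6 in DESeq2, 2 without the Lyz2-low libraries, 1 with the Xist term and 1 to 6 on leaving out 1 library. For the combination against 5-azacitidine the 1 became 2 with no filter and in DESeq2, 0 in limma-voom, with only the groups compared and with the Xist term, and 0 to 2 on leaving out 1 library. Without the Lyz2-low libraries it was again 1, but Spib (adjusted p = 0.0393) in place of Itgax (adjusted p = 0.191). For 5-azacitidine against PD-901 the 0 became 1 with no filter and in DESeq2, and for the interaction 0 to 1 on leaving out 1 library.

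Over all genes, the numbers lower moved further. PD-901 against vehicle went from 0 to 21 with no filter, 3 in DESeq2 and 1 without the Lyz2-low libraries. For 5-azacitidine against vehicle the 0 became 347 with no filter, 322 in DESeq2, 3 with only the groups compared, and 2 without the Lyz2-low libraries, and 0 to 54 on leaving out 1 library. For the combination against vehicle the 1393 became 289 without the Lyz2-low libraries, 0 with the Xist term and 545 to 1666 on leaving out 1 library. Against PD-901 its 895 became 1452 in DESeq2, 302 without the Lyz2-low libraries, 486 with the Xist term and 346 to 1159 on leaving out 1 library. Against 5-azacitidine its 187 became 704 with no filter, 760 in DESeq2, 7 with only the groups compared, 40 without the Lyz2-low libraries and 0 to 547 on leaving out 1 library. For 5-azacitidine against PD-901 the 0 became 108 with no filter, 27 in DESeq2 and 0 to 2 on leaving out 1 library, and for the interaction 288 with no filter, 213 in DESeq2, 4 in limma-voom and 0 to 125 on leaving out 1 library.

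No member that passed the test changed sign under any alternative. Estimates that did change sign belonged to members that had not passed. In limma-voom these were Zbtb46 after 5-azacitidine (-0.053) and in combination against PD-901 (-0.031), Itgax in 5-azacitidine against PD-901 (-0.10) and the interaction of Siglech (-0.18). With the Xist term they were Xcr1 after the combination (0.26) and against PD-901 (0.49), and Siglech (0.13), Ccr9 (0.058) and Tcf4 (0.081) in combination against 5-azacitidine. Without the Lyz2-low libraries they were Xcr1 after 5-azacitidine (-0.41) and in combination against PD-901 (0.91), and the interaction of Siglech (-1.68), Ccr9 (-0.080) and Xcr1 (1.33).

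Leaving out 1 library gave these ranges. Xcr1 ran from -1.07 to 0.10 after PD-901, -0.46 to 1.13 after 5-azacitidine and -1.31 to 0.25 in combination against PD-901. Zbtb46 ran from -0.15 to 0.23 after 5-azacitidine, -0.089 to 0.65 after the combination, -0.40 to 0.35 in combination against PD-901 and -0.10 to 0.65 against 5-azacitidine. In combination against 5-azacitidine Siglech ran from -0.69 to 0.30, Ccr9 from -0.44 to 0.48, Tcf4 from -0.29 to 0.091 and Flt3 from -0.30 to 0.065. Itgax ran from -0.51 to 0.28 in 5-azacitidine against PD-901. The interaction ran from -0.43 to 0.56 for Siglech, -0.20 to 0.72 for Ccr9, -0.40 to 0.34 for Zbtb46, -1.72 to 0.33 for Xcr1 and -0.68 to 0.51 for Batf3.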
